A study of Mus musculus with 14 samples.

Results

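The miR-29 family of the mouse, miR-29a, miR-29b and miR-29c, was followed through a study of acute heart transplant rejection. Its members were picked as a known family, with earlier results of these data known, and found by assay name (mmu-miR-29a, mmu-miR-29b and mmu-miR-29c), with no measured value in the rule. They are 3 of the 375 microRNA assays on a TaqMan rodent array card, a plate of real-time PCR reactions with 1 small RNA per well. The study ran 14 arrays, 7 of whole hearts and 7 of lymphocytes or blood cells, and each set of 7 forms a table of its own. The mice were 8 to 10 weeks old, hearts were transplanted to a heterotopic site, and RNA of 3 animals was pooled for each array (100 ng each, 300 ng in total).

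Syngeneic heart grafts, from C57BL/6 donors into C57BL/6 recipients, were taken on day 7 and were not rejected (3 pools). Allogeneic heart grafts, from BALB/c donors into C57BL/6 recipients, were taken on day 7 (3 pools). The heart table also holds 1 pool of normal BALB/c hearts, which is of the donor strain of the allogeneic grafts and of another strain than the syngeneic grafts. Graft-infiltrating lymphocytes (GIL) were taken on day 5 from syngeneic grafts (3 pools) and from allogeneic grafts (3 pools). The lymphocyte table also holds 1 pool of blood cells of normal C57BL/6 mice, titled PBMC in the labels and called PBLs in their protocol. No group carried a transgene or received a drug, as far as the labels say. In both allogeneic comparisons the allogeneic and syngeneic samples differ in donor strain as well as in rejection. The labels do not say whether pools share animals or preparations, so p-values measure only the spread between these pools.

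MicroRNAs are short RNAs that guide a silencing complex to messenger RNAs, mainly through their seed, a stretch near their 5′ end. The miR-29 family is best known for repressing messenger RNAs of the extracellular matrix, among them those of collagens, elastin and fibrillin, and in heart tissue it is abundant in cardiac fibroblasts and its loss accompanies fibrosis. In T cells, miR-29 members are known to restrain interferon-gamma and T-bet, which drive the type of helper response seen in acute rejection.

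The mature sequences are shown because the members share 1 seed and differ at few other positions, so that 3 assays read near-identical molecules. All 3 members matched an entry of RefSeq (GRCm38.p6) under the same name with the arm 3p. The seed, bases 2 to 8, is in capitals.
miR-29a-3p: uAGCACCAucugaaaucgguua
miR-29b-3p: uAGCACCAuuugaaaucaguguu
miR-29c-3p: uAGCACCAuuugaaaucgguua
Of the 1679 mature names in that table, 3 carry the seed AGCACCA, and they are these members. Counting from 1 at the 5′ end, miR-29a and miR-29c differ by the single substitution C10U. From miR-29c to miR-29b the substitutions are G18A, U21G and A22U, and miR-29b is 1 base longer. From miR-29a to miR-29b there are 4, which are C10U, G18A, U21G and A22U. How far each assay also reads the other members is not given in the sources used here.

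The family comes from 2 loci (GRCm38.p6). Mir29a (chr6:31062660-31062747, minus strand) and Mir29b-1 (chr6:31063023-31063093, minus strand) lie 275 bases apart and overlap no other gene of the annotation, and the nearest coding gene, Klf14, is 103670 bases from Mir29a. Mir29b-2 (chr1:195037040-195037120, plus strand) and Mir29c (chr1:195037547-195037634, plus strand) lie 426 bases apart within the long non-coding gene A330023F24Rik, and the nearest coding gene, Cd46, is 1337 bases from Mir29c. The miR-29b hairpins are shown because both loci give the same mature miR-29b (capitals), so that the miR-29b assay cannot tell them apart.
Mir29b-1 hairpin: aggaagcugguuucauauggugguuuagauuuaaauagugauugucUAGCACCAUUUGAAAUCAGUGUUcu
Mir29b-2 hairpin: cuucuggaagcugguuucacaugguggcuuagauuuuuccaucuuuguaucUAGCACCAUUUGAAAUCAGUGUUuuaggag
By annotation, mature miR-29a comes from the locus on chromosome 6, miR-29c from that on chromosome 1, and miR-29b from both. Whether each assay reads its own member alone was not tested.

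The members were readily measured. All 42 wells (3 members on 14 arrays) passed the flags of the instrument software, and their threshold cycles (Ct, in which a lower value is more RNA) ran from 15.7 to 31.7, below the detection limit of 35. Levels below are minus the Ct, relative to the mean Ct that the reference assays had on the same array, so that a difference of 1 is about 2-fold. The reference assays are those microRNAs that no array of the table missed, 210 in hearts and 137 in lymphocytes. The levels of different members are not set against each other as amounts, since each assay has its own efficiency. An assay was called in a comparison when limma's Benjamini-Hochberg adjusted p, over all assays tested there, was under 0.05.

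Hearts had 228 to 260 microRNA assays detected per array and lymphocyte and blood arrays 161 to 221. Allogeneic GIL pool 3 stood apart, with 161 detected and a mean reference Ct of 27.95 where the other 6 arrays of its table had 23.2 to 25.8. Leukocyte markers (miR-142-3p and miR-142-5p) were present on all GIL arrays, with mean levels of 0.16 to 0.69 in syngeneic and 1.28 to 2.27 in allogeneic GIL against 3.49 in PBMC. GIL pools also carried microRNAs of graft tissue. The mean of the 2 endothelial markers was 3.74 to 4.39 in syngeneic and 2.91 to 3.63 in allogeneic GIL against -1.30 in PBMC. The mean of the 3 fibroblast markers was 1.48 to 1.83 and -1.01 to 0.06 against -9.50, with miR-199a-5p and miR-214 undetected in PBMC. That of the 6 cardiac muscle markers was -3.90 to -3.34 and -2.44 to -0.80 against -9.73, with miR-133b, miR-208, miR-208b and miR-499 undetected in PBMC and miR-208b undetected in GIL. The GIL samples thus carried markers of graft tissue that stood lower or undetected in PBMC. In such bulk samples, fewer cells of a type and less RNA per cell cannot be told apart.

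**Figure D1:**
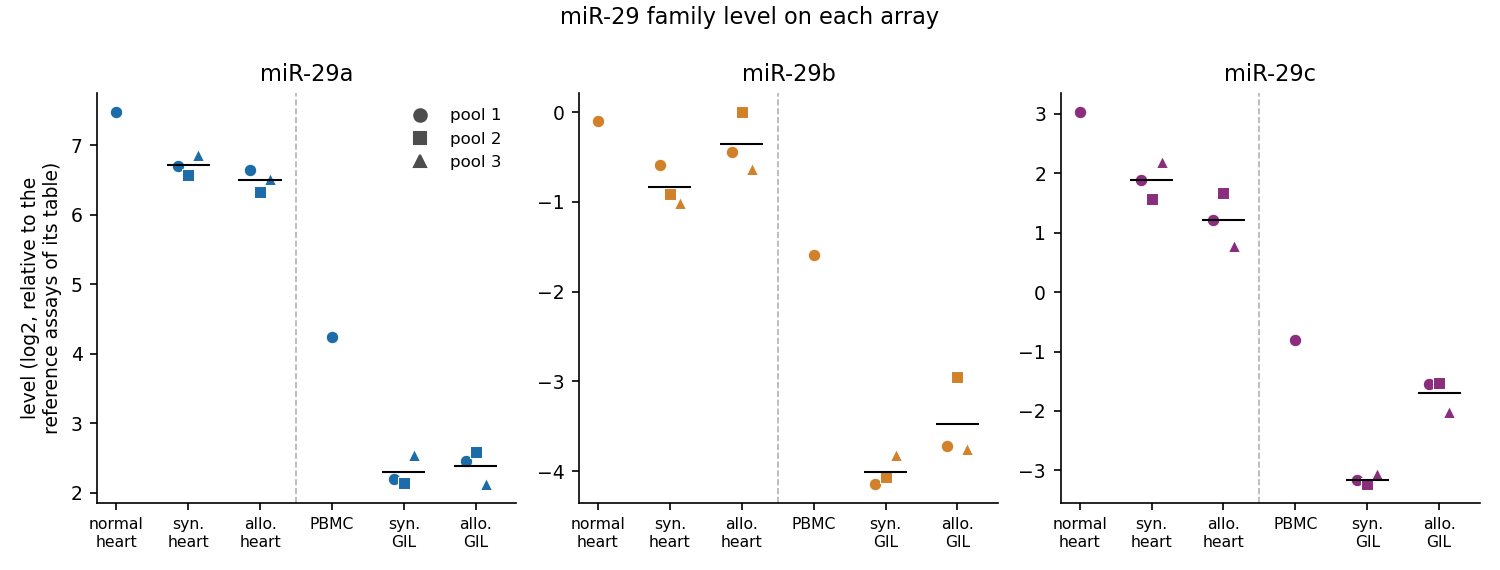
Level of miR-29a, miR-29b and miR-29c on each of the 14 arrays (log2, relative to the reference assays of the table, which differ on either side of the dashed line), with pools as separate marks and a bar at the mean of 3 pools. The miR-29c values of allogeneic GIL, from -2.01 to -1.53, all lie above those of syngeneic GIL, from -3.23 to -3.07, while in hearts the groups overlap.

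The leading difference within the family was in lymphocytes, where miR-29c alone among the members was called between allogeneic and syngeneic grafts. Its level was -3.17, -3.23 and -3.07 in syngeneic GIL pools 1, 2 and 3. In allogeneic GIL it was -1.55, -1.53 and -2.01, and in PBMC -0.81. Every allogeneic pool was above every syngeneic pool, and PBMC was above both groups. The difference was 1.46 ± 0.23 (SE, 3 pools against 3; 95% interval 0.88 to 2.03), a 2.75-fold rise with a limma adjusted p of 0.0077.

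miR-29a, which shares all but 1 base with miR-29c, had levels of 2.20, 2.14 and 2.54 in syngeneic GIL and 2.46, 2.58 and 2.12 in allogeneic GIL, with 4.24 in PBMC. The GIL groups overlapped fully, and the difference was 0.09 ± 0.24 (95% interval -0.51 to 0.69; limma adjusted p = 0.770). miR-29b stood at -4.15, -4.06 and -3.82 in syngeneic GIL, at -3.72, -2.95 and -3.76 in allogeneic GIL and at -1.59 in PBMC. Its groups did not overlap, by a gap that is small beside the spread of the allogeneic pools, of which pool 2 was the highest. The difference was 0.53 ± 0.30 (95% interval -0.20 to 1.27; limma adjusted p = 0.201), so a change of up to 1.27 is within its interval.

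Of the 3 members, 1 was called higher in allogeneic GIL, where 12.4% of the 201 assays tested were called higher and 36.3% were called in either direction. The median difference of all assays tested was -0.24. Groups that did not overlap, as those of miR-29b and miR-29c, were found for 57.7% of assays, so this share says little of the members. The counts over all assays depend on the scaling: 25 higher and 48 lower became 34 and 20 when scaled to MammU6, 38 and 10 with snoRNA202, 21 and 10 with snoRNA135 and snoRNA202, 36 and 39 with the median of the reference assays, and 34 and 31 with quantile normalization. Leaving out syngeneic GIL pool 1, 2 or 3 left 46, 40 and 40 calls in place of 73.

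The call for miR-29c was kept under 19 of 20 alternative settings, with differences from 1.32 to 2.35 and adjusted p from 0.00103 to 0.0506. Among those kept, the fit without the normal array only repeated the main result (limma adjusted p = 0.0077). Run day as a random block, also among them, cannot separate run day from group. The call was lost, at 0.0506, when assays with low values were not filtered. Without allogeneic GIL pool 3, the array that stood apart, the difference was 1.71 (limma adjusted p = 0.00595), with 73 assays called. miR-29b was called under 1 alternative, quantile normalization, with a difference of 1.40 and a limma adjusted p of 0.0476.

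Some other measures moved with this comparison. The 2 leukocyte markers had a median difference of 1.30 (1 of 2 called higher), and cardiac muscle markers were called higher in allogeneic GIL in 2 of the 3 tested. That cardiac muscle count was 2 with MammU6, 1 with snoRNA202 and 0 with snoRNA135 and snoRNA202, with medians of 2.48, 2.55 and 2.31. Fibroblast markers were called lower in 3 of 3, and in 1 of 3 with MammU6, snoRNA202 or snoRNA135 and snoRNA202. Endothelial markers were called lower in 1 of 2 (median -0.65). With MammU6, snoRNA202, and snoRNA135 and snoRNA202, 0 of 2 were called, and their median was 0.17, 0.24 and -0.0017. Mature lymphocyte markers were called in 0 of 2 (median 0.55), and 1 of 2 was called higher with MammU6 or with snoRNA202. The myeloid marker miR-223 differed by -0.83 and the erythroid marker miR-451 by 0.67, and neither was called. All 3 syngeneic GIL arrays were run on 1 day and the allogeneic arrays on other days, so that run day and group cannot be told apart in the lymphocyte table. With run day as a random block (correlation -0.0086) the miR-29c difference was 1.46 (limma adjusted p = 0.00743). That block cannot separate run day from group either. The part of the marker lists in the miR-29c difference was not tested.

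In the authors' deposited table, values are relative quantities, scaled to the small nucleolar RNA snoRNA202 and set to 1 in PBMC. There miR-29c was 0.254, 0.236 and 0.338 in syngeneic GIL. In allogeneic GIL it was 1.27, 2.42 and 0.865 in the authors' deposited table, so that 2 of 3 pools were above PBMC. On the same scale miR-29a was 0.316, 0.295 and 0.497 in syngeneic and 0.62, 1.265 and 0.458 in allogeneic GIL, in the authors' deposited table. snoRNA202 itself was lower in allogeneic than in syngeneic GIL by 0.89 on the log2 scale of the reference assays (a difference of -0.89), and members scaled to it are higher in allogeneic GIL by that amount. With that scaling the difference of miR-29c was 2.35 (limma adjusted p = 0.0211), that of miR-29b 1.42 (0.0996) and that of miR-29a 0.98 (0.167).

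In whole hearts on day 7 none of the members was called between allogeneic and syngeneic grafts. miR-29c was at 1.88, 1.57 and 2.18 in syngeneic hearts and at 1.21, 1.66 and 0.78 in allogeneic hearts, with 3.03 in the normal heart. The graft groups overlapped through allogeneic pool 2, and the normal heart was above all grafts. The difference was -0.66 ± 0.31 (95% interval -1.40 to 0.07; limma adjusted p = 0.139).

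miR-29a was at 6.70, 6.58 and 6.86 in syngeneic, at 6.65, 6.33 and 6.52 in allogeneic and at 7.48 in normal hearts. Its graft groups overlapped, and the difference was -0.21 ± 0.21 (95% interval -0.72 to 0.30; limma adjusted p = 0.464). miR-29b was at -0.58, -0.91 and -1.01 in syngeneic, at -0.44, 0.0017 and -0.64 in allogeneic and at -0.093 in normal hearts. Here allogeneic pool 2 was the highest graft, the groups overlapped, and the difference of 0.48 ± 0.26 had the opposite sign to those of the other members (95% interval -0.14 to 1.10; limma adjusted p = 0.193).

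Thus 0 of 3 members were called in hearts by limma (0 also at an unadjusted p under 0.05), where 32.4% of the 238 assays tested were called and 113 had an unadjusted p under 0.05. The groups of 0 of 3 members were free of overlap, as were those of 54.2% of all assays. The median difference of all assays was 0.02. No member was called under any of 21 alternative settings, in which the difference of miR-29c ran from -0.92 to -0.41 (adjusted p from 0.0626 to 0.383), that of miR-29b from 0.05 to 0.65, and that of miR-29a from -0.47 to 0.03. Relative to the 133 reference assays shared by both tables, the groups of miR-29c and of miR-29a no longer overlapped, while those of miR-29b did. For miR-29c the allogeneic hearts lay between -0.81 and -0.035 and the syngeneic between 0.048 and 0.63. For miR-29a they lay between 4.63 and 4.94 and between 5.05 and 5.31. The share of all assays free of overlap was not counted on that scale. Without syngeneic heart pool 2, syngeneic pool 3 or allogeneic pool 1, 42, 45 and 43 assays were called in place of 77.

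Of the heart arrays, an allogeneic and a syngeneic pool shared a run day on 2 days. Within those days miR-29c differed by -0.67 and -0.80, miR-29a by -0.05 and -0.05, and miR-29b by 0.15 and 0.28. When run day entered the fit as a fixed block, 2 assays were called in hearts and the difference of miR-29c was -0.73 (limma adjusted p = 0.118). Only the 2 shared days bear on the contrast in that fit, which leaves little to estimate the spread from. The loss of calls under it, here and in the lists below, therefore says little of run day. Cardiac muscle markers had mean levels of 3.01 to 3.51 in syngeneic and 1.58 to 1.96 in allogeneic hearts (5 of 6 called lower), and endothelial markers 6.88 to 7.20 and 5.33 to 5.72 (2 of 2 lower). Leukocyte markers were at 1.57 to 2.19 and 3.04 to 3.50 (2 of 2 higher), and fibroblast markers at -2.02 to 2.25 and -2.91 to 0.73 (2 of 2 tested lower). Of the erythroid markers, which are at home in red blood cells, miR-451 was higher in allogeneic hearts by 3.99 (limma adjusted p = 0.00797) and miR-486 differed by -0.16 (not called). Of the mature lymphocyte markers, miR-342-3p was higher by 1.30 (limma adjusted p = 0.0431) and miR-150 differed by -0.49 (not called), and the myeloid marker miR-223 differed by 0.96 (not called). Their part in the members' levels was not tested.

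**Figure D2:**
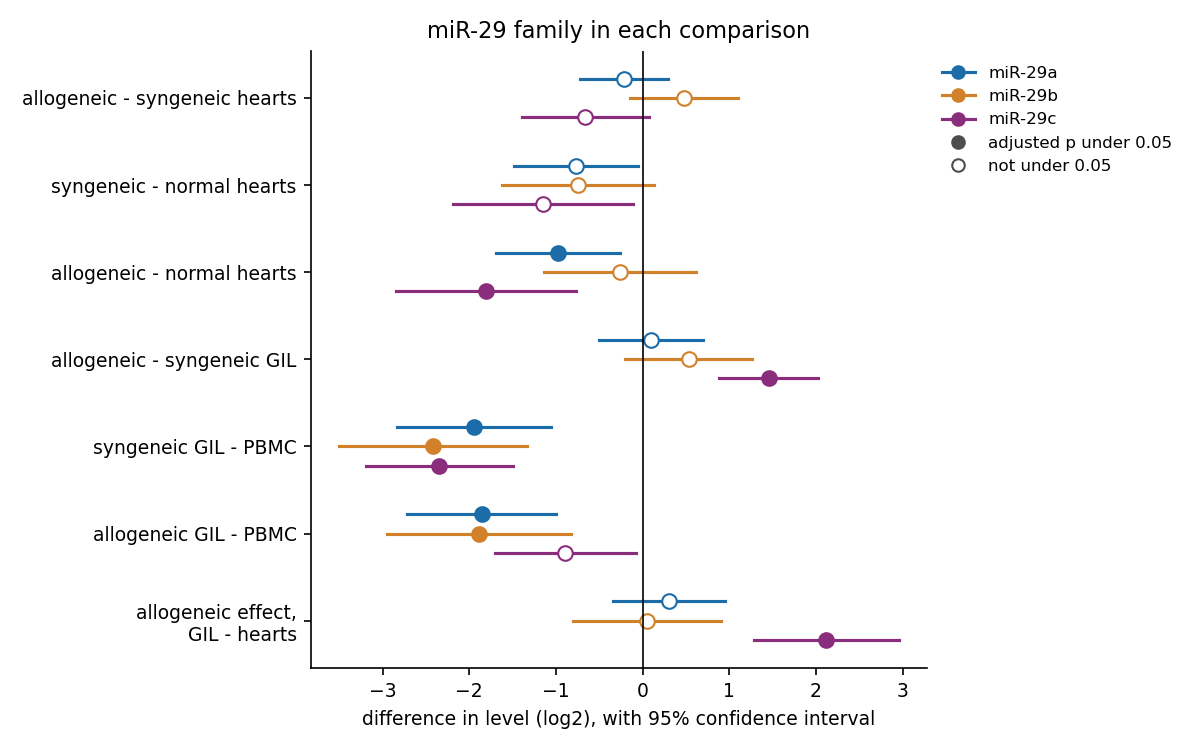
Difference in level (log2) of each member in 7 comparisons, with its 95% confidence interval, filled where limma's adjusted p over all assays was under 0.05. miR-29c is the only member called between allogeneic and syngeneic GIL (1.46; under quantile normalization miR-29b is called too) and in the difference of effects between GIL and hearts (2.12), and the comparisons with a normal array share that array.

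The allogeneic effect of miR-29c differed between the compartments. The effect in GIL minus that in hearts was 2.12 ± 0.38 for miR-29c over the 12 transplant arrays (95% interval 1.28 to 2.96; limma adjusted p = 0.00401). Called higher in this way were 8.08% of the 198 assays tested in both comparisons, and 28.8% were called in either direction. The median over all assays was -0.44. The same contrast was 0.30 ± 0.29 for miR-29a (limma adjusted p = 0.445) and 0.05 ± 0.38 for miR-29b (limma adjusted p = 0.919). For miR-29c it was called in 25 of 25 alternatives (1.87 to 3.06; adjusted p from 5.81e-04 to 0.036), and without allogeneic GIL pool 3 it was 2.37. Tissue, day after transplantation and table change together here, so that they cannot be told apart.

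**Figure D3:**
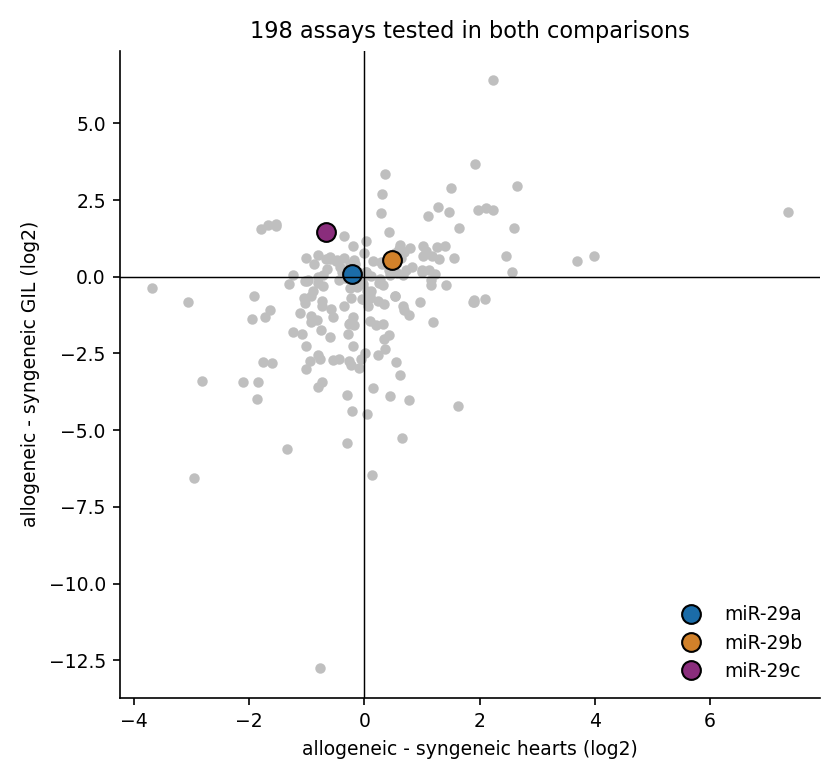
Allogeneic minus syngeneic difference (log2) in hearts, on the horizontal axis, against that in GIL, on the vertical axis, for the 198 assays tested in both, with the members in colour. miR-29c lies at -0.66 in hearts and 1.46 in GIL, while miR-29a lies close to 0 in both.

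The members were also set against each other on the same array, where any scaling cancels. Only the change of such a difference between groups is read. In hearts the level of miR-29c minus that of miR-29b was 2.47, 2.49 and 3.19 in syngeneic and 1.65, 1.66 and 1.41 in allogeneic pools, with 3.12 in the normal heart. Every allogeneic pool was below every syngeneic pool, and the change was -1.14. In GIL the same difference was 0.98, 0.83 and 0.75 in syngeneic, 2.17, 1.42 and 1.74 in allogeneic pools and 0.79 in PBMC. Here every allogeneic pool was above every syngeneic pool, and the change was 0.93.

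For miR-29c minus miR-29a, a pair that differs at 1 base, the values were -5.37, -5.37 and -5.61 in syngeneic and -4.01, -4.11 and -4.13 in allogeneic GIL, with -5.05 in PBMC. The allogeneic pools lay within a narrow range above all syngeneic pools, also pool 3, and the change was 1.36, or 2.57-fold. In hearts the same pair was at -4.81, -5.00 and -4.67 in syngeneic and at -5.44, -4.67 and -5.74 in allogeneic pools. Allogeneic pool 2 reached the highest syngeneic value, so the groups overlapped, and the change was -0.45 (exact permutation p = 0.4).

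For miR-29b minus miR-29a the groups did not overlap in either table. The difference was -7.28, -7.49 and -7.86 in syngeneic and -7.09, -6.33 and -7.16 in allogeneic hearts, a change of 0.69. In GIL it was -6.34, -6.21 and -6.36 in syngeneic and -6.18, -5.54 and -5.88 in allogeneic pools, a change of 0.44. The GIL groups were only narrowly apart, at -6.21 in syngeneic pool 2 and -6.18 in allogeneic pool 1. Groups thus did not overlap in 5 of the 6 pair comparisons, each with an exact two-sided permutation p of 0.1, the smallest that 3 against 3 can give (adjusted over the 6 tests 0.12). Among all pairs of reference assays the groups did not overlap in 51.6% of pairs in hearts and 55.3% in GIL.

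The change in GIL was then set against the change in hearts, with an exact permutation of the labels within each table (400 splits, smallest p 0.005), a test added after the values were seen, so that its p-values describe a pattern already noticed. It was 2.07 for miR-29c minus miR-29b (exact permutation p = 0.005, adjusted over 3 pairs 0.015) and 1.82 for miR-29c minus miR-29a (exact permutation p = 0.02, adjusted 0.03). For miR-29b minus miR-29a it was -0.25 (exact permutation p = 0.655, adjusted 0.655). Over all 8778 pairs of the shared reference assays, 23.0% had a permutation p of at most 0.05 in this test and 7.15% reached its smallest p. Pairs with such a difference are thus common in these data, and the test shows nothing particular to miR-29c.

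**Figure D4:**
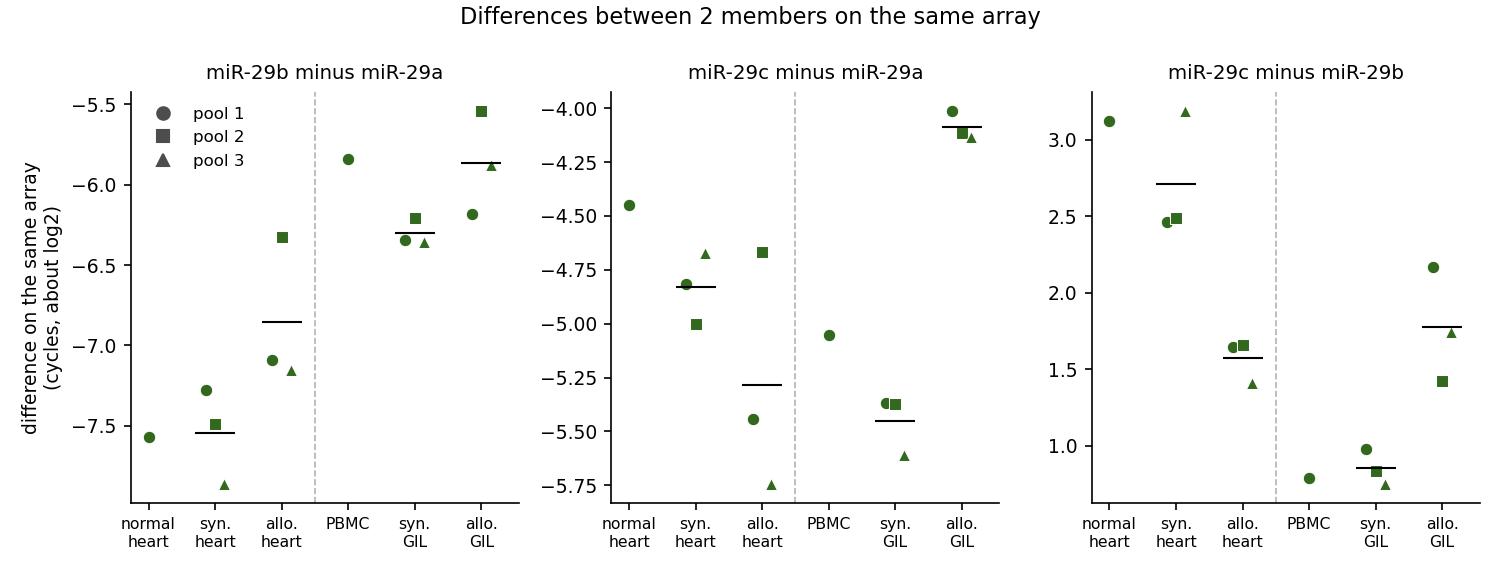
Difference in level between 2 members on the same array (cycles, about log2) by group, with pools as separate marks and a bar at the mean of 3 pools. miR-29c minus miR-29b falls from a mean of 2.71 to 1.57 from syngeneic to allogeneic hearts and rises from 0.85 to 1.78 from syngeneic to allogeneic GIL.

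Against the normal arrays, all 3 members had lower mean levels in grafts and in infiltrating cells. These comparisons rest on 1 normal array in each table, assumed to vary like the other groups, and syngeneic and allogeneic comparisons share it. Each normal array was also run on a day of its own, so that run day and group cannot be told apart here. In allogeneic hearts, miR-29c was 3.51-fold lower than in the normal heart, a difference of -1.81 ± 0.43 (limma adjusted p = 0.0146). miR-29a was 1.97-fold lower, a difference of -0.98 ± 0.30 (limma adjusted p = 0.0335), and miR-29b differed by -0.26 ± 0.37 (limma adjusted p = 0.541). Called lower were thus 2 of 3 members against 25.7% of the 241 assays tested (51.9% in either direction). The call for miR-29a was lost without allogeneic heart pool 2 (-0.87; limma adjusted p = 0.0511) and without pool 3 (-0.97; 0.0524). With snoRNA202 as the scale, neither call was kept (miR-29a -0.39, miR-29c -1.22) and miR-29b stood at 0.33.

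In syngeneic hearts none was called against the normal heart: miR-29a differed by -0.77 ± 0.30 (limma adjusted p = 0.110), miR-29b by -0.74 ± 0.37 (0.182) and miR-29c by -1.15 ± 0.43 (0.106). In that comparison 19.0% of 242 assays were called (7.44% lower). An unadjusted limma p under 0.05 was found for 2 of 3 members, miR-29a and miR-29c, and for 97 of the 242 assays. Cardiac muscle markers were at 4.61 in the normal heart, above all grafts, and endothelial markers at 8.23, also above all grafts. Leukocyte markers were at -0.74, below all grafts. Their part in the levels of miR-29a and miR-29c was not tested.

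In lymphocytes, all 3 members were called lower in syngeneic GIL than in PBMC, where 31.9% of the 229 assays tested were called lower and 60.7% in either direction. miR-29b was 5.33-fold lower (-2.41 ± 0.44; limma adjusted p = 0.00468), miR-29c 5.09-fold lower (-2.35 ± 0.34; 0.0024) and miR-29a 3.86-fold lower (-1.95 ± 0.36; 0.00491). In allogeneic GIL, miR-29a and miR-29b were called lower than in PBMC, by -1.86 ± 0.34 (limma adjusted p = 0.00727) and -1.88 ± 0.43 (0.0144), where 35.8% of 212 assays were called lower and 58.0% in either direction. miR-29c differed by -0.89 ± 0.33 and was not called (limma adjusted p = 0.0609). The medians of all assays were -0.77 in the syngeneic and -1.19 in the allogeneic comparison, so that miR-29c in allogeneic GIL lay above the median.

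These calls depend on the scale. With snoRNA202, or with snoRNA135 and snoRNA202, none of the members was called against PBMC in either group, and miR-29c in allogeneic GIL turned to 0.47 and 0.10. GIL pools carried graft tissue markers at the levels given above, and their part in the members' levels was not tested.

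The order of the 6 groups was the same for miR-29a and miR-29c. It was read relative to the 133 reference assays shared by both tables, and since the tables were run and scaled separately it is a description. For miR-29c the normal heart was highest at 1.49, followed by syngeneic hearts at 0.34 ± 0.29 and allogeneic hearts at -0.46 ± 0.39 (SD, n = 3). PBMC followed at -0.84, then allogeneic GIL at -1.72 ± 0.27 and syngeneic GIL at -3.19 ± 0.07 (SD, n = 3). Allogeneic hearts and PBMC did not differ beyond the spread of the heart pools.

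For miR-29a the order was 5.94 in the normal heart, 5.17 ± 0.13 in syngeneic and 4.82 ± 0.17 in allogeneic hearts, 4.21 in PBMC, 2.37 ± 0.24 in allogeneic and 2.25 ± 0.21 in syngeneic GIL (SD, n = 3). Its GIL groups did not differ beyond their spread. For miR-29b PBMC and the normal heart were level at -1.63, above allogeneic hearts at -2.03 ± 0.29 and syngeneic hearts at -2.38 ± 0.22, which overlap. Its GIL values were -3.50 ± 0.45 in allogeneic and -4.05 ± 0.16 in syngeneic pools (SD, n = 3). For all 3 members, both GIL groups were lower than every other group.

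The assays most like each member were found by Pearson's r over the 7 arrays of a table, which share their reference assays and include 1 normal array. In hearts, miR-29a was most like miR-499 (r = 0.96), a microRNA of cardiac muscle, miR-384-5p (0.95) and let-7g (0.94). miR-29c was most like miR-24 (0.98), miR-30a (0.96) and miR-101a (0.94), all 3 of which are in the list of other fibrosis-restraining microRNAs below. miR-29b was most like miR-200a (0.90), miR-130a (0.83) and the erythroid miR-451 (0.80). Between members r was 0.83 for miR-29a and miR-29c, 0.25 for miR-29b and miR-29c and 0.15 for miR-29a and miR-29b. The median over the 209 other assays was 0.05 for miR-29a, and miR-29c ranked 32 among them.

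In lymphocytes, where the median r over the 136 other assays was higher (0.58 for miR-29a, 0.54 for miR-29b and 0.35 for miR-29c), miR-29b was close to miR-26b (r = 0.96), miR-29a (0.95) and miR-30e (0.94). miR-29a was most like miR-222 (0.97), miR-192 (0.97) and miR-128a (0.95). For miR-29c, r was 0.70 with miR-29a and 0.83 with miR-29b, which ranked 42 and 20 among its 136 other assays. miR-29c was again close to miR-30a (0.98), followed by miR-467a (0.97) and miR-467c (0.94). miR-30a was thus among the 3 most like miR-29c in both tables. Its own allogeneic difference was -0.67 ± 0.25 in hearts and 0.57 ± 0.20 in GIL (SE), given with no test, since miR-30a was picked for its likeness to miR-29c on these arrays.

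Beside the family, other microRNAs known to restrain fibrosis were counted (miR-1, miR-133a, miR-133b, miR-24, miR-26a and miR-26b, miR-30a to miR-30e and miR-101a, 12 of 13 listed being on the card under the names searched). In allogeneic against syngeneic hearts 7 of 12 were called lower and 0 higher (median -0.80), against 15.1% called lower and 17.2% called higher of all assays. They were miR-133b (-1.79), miR-133a (-1.67), miR-1 (-1.53), miR-30c (-1.25), miR-30e (-1.02), miR-30b (-0.80) and miR-26a (-0.80). miR-1, miR-133a and miR-133b are also among the cardiac muscle markers above. The count of 7 fell to 3 with MammU6, 4 with snoRNA202, 5 with snoRNA135 and snoRNA202, 3 with no filter and 0 when run day was a fixed block, and it was 2 without syngeneic heart pool 2 or pool 3 and 4 without syngeneic pool 1, allogeneic pool 1 or allogeneic pool 2. In GIL 2 of 12 were called higher, miR-133a (1.67) and miR-133b (1.54), and 0 lower (median 0.50), a share near that of all assays (12.4% called higher and 23.9% lower). No assay of the list was called in GIL with snoRNA135 and snoRNA202, with no filter, or without syngeneic GIL pool 1 or pool 2, and 1 was called without allogeneic GIL pool 3. The effect in GIL minus that in hearts was called higher in 7 of 12 and lower in 0 (median 1.24), against 8.08% and 20.7% of all assays. It was called higher in 4 with MammU6 or with no filter and in 11 with the median of the reference assays.

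Of the microRNAs known to promote fibrosis or to mark fibroblasts (miR-21, miR-34a, miR-214 and both arms of miR-199a), 4 were tested in hearts. miR-21, which is raised in injured heart tissue, rose by 1.55 ± 0.21 (limma adjusted p = 0.00437), while miR-199a-3p differed by -1.94 and miR-214 by -1.85, both called lower (median -0.97; 1 rise and 2 falls of 4, against 17.2% and 15.1% of all assays). With MammU6 0 were called higher and 1 lower, and 0 either way when run day was a fixed block. In GIL 3 of 5 were called lower, which were miR-199a-5p (-1.31), miR-199a-3p (-1.38) and miR-214 (-3.45), and 0 higher (median -1.38), against 23.9% lower and 12.4% higher of all assays. With MammU6, with snoRNA202 and with snoRNA135 and snoRNA202, 1 of 5 was called lower, and the list's median was -0.56, -0.49 and -0.73. In those settings miR-199a-3p and miR-199a-5p were not called. Also 1 was called lower without any one of syngeneic GIL pools 1, 2 and 3 or without allogeneic pool 1.

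Of 7 microRNAs known from T cell activation, miR-182 (2.64) and miR-21 (1.55) were called higher in allogeneic hearts and 0 lower (median 0.77). Of all assays, 17.2% were called higher there and 15.1% lower. In the list, 1 was called higher with MammU6 and 0 when run day was a fixed block. In allogeneic GIL miR-182 (2.95), miR-155 (1.98) and miR-146a (1.16) were called higher, and miR-31 (-2.03) and miR-132 (-1.25) lower (median 0.62), against 12.4% higher and 23.9% lower of all assays. With MammU6, snoRNA202 or snoRNA135 and snoRNA202, 0 of the 7 were called lower, miR-31 and miR-132 both losing their calls. The rise of miR-29c in GIL, 1.46, lay between those of miR-155 and miR-146a.

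**Figure D5:**
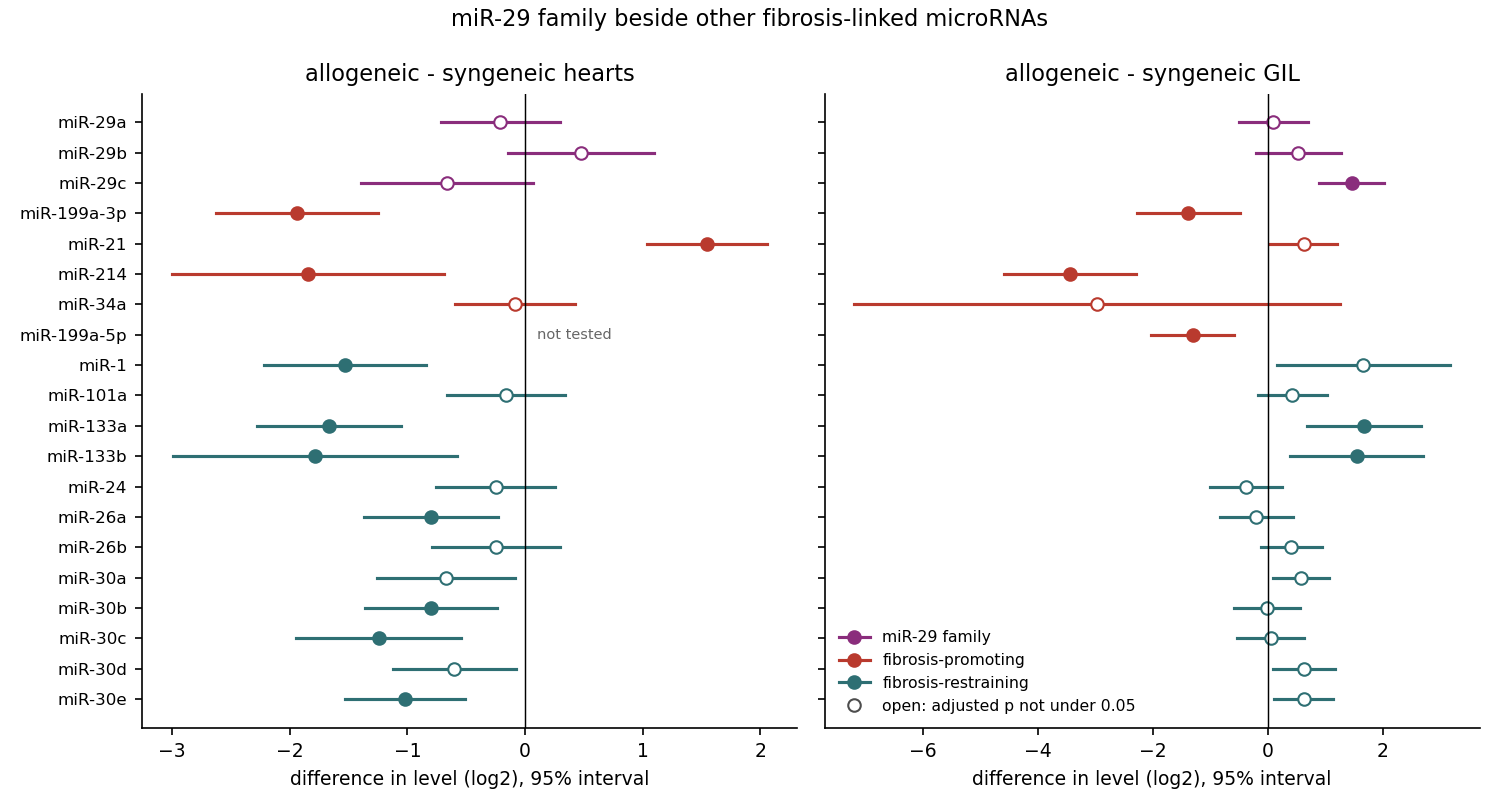
Allogeneic minus syngeneic difference (log2) with its 95% interval in hearts (left) and GIL (right) for the members and for the listed microRNAs that promote or restrain fibrosis, filled where limma's adjusted p over all assays was under 0.05. In hearts 7 of the 12 fibrosis-restraining assays are filled on the low side and no miR-29 member is filled, while in GIL miR-29c (1.46) is filled on the high side with miR-133a and miR-133b, calls that snoRNA135 with snoRNA202 as the scale leaves to miR-29c alone among these 3.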

How the data were processed

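Total RNA was isolated, pooled, reverse transcribed, preamplified and run as TaqMan real-time PCR, per the labels' protocols. The authors deposited, for each well, a threshold cycle (Ct), a delta Ct on an inverted log2 scale and a relative quantity, a ratio. The deposited delta Ct equals the Ct minus that of snoRNA202 within 4.8e-04. Baseline and threshold settings are not given in the sources used here. Levels were computed from the Ct: undetermined wells and those at 35 or later were set to 35, and 1 heart well with an unmapped sample name, of no member, was left out. Tested assays had to be detected on all arrays of 1 or more of the compared groups. Fits used limma 3.58.1 in R 4.3.3 (lmFit, eBayes, 3 groups per table, two-sided), checked on simulated data. The number of arrays limits the precision. The members, the lists and the rule for named assays (members, listed assays called in an allogeneic comparison, and the 3 assays most like each member) were chosen with earlier results of these data known. miR-30a is also named with values below the threshold because it recurred.

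Alternatives were other scalings (MammU6, snoRNA202, snoRNA135 with snoRNA202, the median, quantiles), limits of 32 and 40, filters, blocks and leaving out each pool.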

Additional observations from a re-analysis of the deposited data

Results flagged for a closer look

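For 3 results, all of miR-29c, effects under the same contrast were set apart between hearts and GIL by a test of the difference. The allogeneic effect of miR-29c in GIL minus that in hearts was 2.12 (limma adjusted p = 0.00401). The other 2 rest on a test added after the values were seen, which 23.0% of all pairs of shared reference assays pass at p of at most 0.05 and 7.15% at the smallest p, so they add no support. The change of miR-29c minus miR-29a on the same array was higher in GIL than in hearts by 1.82 (exact permutation p = 0.02, adjusted 0.03). That of miR-29c minus miR-29b was higher by 2.07 (exact permutation p = 0.005, adjusted 0.015). The 3 results share the same miR-29c wells and are not independent of each other.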

How the results depend on the processing

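The allogeneic against syngeneic GIL call of miR-29c (1.46) lost its call with no filter, again at 1.46. With other scalings, miR-29c minus the median of all assays was 1.69 to 2.15, where the median itself moved from -0.24 by up to 0.89. Apart from quantiles (2.15), each scaling shifts all assays of an array alike. This distance could then hardly change, so it is no check of the call.

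Other values that changed side or sign follow. Allogeneic hearts minus normal: with MammU6 miR-29a -0.75 and miR-29c -1.59; with snoRNA202 -0.39, 0.33 and -1.22 for miR-29a, miR-29b and miR-29c; with quantiles miR-29a 0.22; with no filter miR-29a -0.98. Allogeneic GIL minus PBMC: with MammU6 miR-29b -2.16; with snoRNA202 -0.49, -0.52 and 0.47; with snoRNA135 and snoRNA202 -0.87, -0.90 and 0.10; with quantiles miR-29a -0.74 and miR-29b -1.66; with no filter miR-29b -1.88. There miR-29c was called with the limit of 40 (-1.18) and with assays detected on every array only (-0.89). Syngeneic GIL minus PBMC: -1.48, -1.94 and -1.88 with snoRNA202, and -1.61, -2.08 and -2.01 with snoRNA135 and snoRNA202. Quantiles gave miR-29a 0.03 in allogeneic minus syngeneic hearts and 0.19 in syngeneic minus normal hearts, and miR-29b 1.40 in GIL. In allogeneic minus syngeneic GIL, miR-29a was -0.04 with the limit of 32. The effect of miR-29b in GIL minus hearts was -0.07 with the limit of 32 and -0.01 without marked wells.

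Leaving out 1 pool gave -1.05 to -0.87 for miR-29a in allogeneic hearts minus normal, -0.02 to 0.33 for miR-29a in GIL, -0.21 to 0.29 for the miR-29b difference of effects, 42 to 81 calls in hearts and 40 to 73 in GIL. Calls in hearts (77) were 34 with MammU6, 2 with run day as a fixed block and 42 with no filter, and in GIL (73) 48 with snoRNA202, 31 with snoRNA135 and snoRNA202 and 35 with no filter. The fixed block leaves little to estimate the spread from, so its count of 2 says little of run day. Higher and lower calls in hearts, 41 and 36, were 42 and 23 with snoRNA202, 24 and 56 with the median and 36 and 51 with shared reference assays.

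Deviations of same-numbered pools from their group means had r from -0.29 to 0.23. With 3 pools a group, this cannot settle whether the numbers pair the pools. With the replicate block, 46 assays were called in hearts and 55 in GIL, and miR-29c in GIL was 1.46 (limma adjusted p = 0.0396). Causes were not tested, and 3 pools a group limit what could be called.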
